A study of Homo sapiens with 18 samples.

Results

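SUDHL4 is an established human cell line from a germinal-centre-type diffuse large B cell lymphoma, and its response to an inhibitor of BCL6 was followed here across all expressed named genes. The data were 6 of the 18 messenger RNA libraries of the series. SUDHL4 cells under the BCL6 inhibitor gave 3 libraries and SUDHL4 cells under the solvent DMSO gave 3, and SUDHL6 and Farage, 2 further lymphoma lines of this type, were treated in the same way with 3 libraries a group. The culture medium was RPMI1640 with 10% FBS for each line. The sample titles give 12 h of treatment for every group and the source names 24 h, and neither the compound's identity nor its dose is given in the sources used here. Each line is a single model, and whether its replicates were separate cultures is not stated, so each p measures the spread between these libraries only. A gene entered if it carried a name and reached at least 1 FPKM (fragments per kilobase of transcript, scaled to the mapped fragments of the library) in at least 3 of the 6 SUDHL4 libraries. This kept 10522 of 26004 named loci, of which 9277 reached 1 FPKM in all 6 libraries. Through the inhibitor libraries alone 275 genes entered, and through the DMSO libraries alone 393. The 736 genes with exactly 3 libraries at 1 FPKM or more had a median level of 1.14 FPKM, and the 252 genes with 2 such libraries, which were left out, had 0.834 FPKM.

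BCL6 is a zinc finger repressor that germinal centre B cells need while they divide fast and mutate their antibody genes. It recruits corepressors through its BTB domain and holds down genes of growth arrest, DNA damage sensing, activation and plasma cell differentiation. A germinal centre lymphoma keeps BCL6 on, and an inhibitor that blocks corepressor binding is meant to release its targets. Cells under chemical or nutrient stress run further programmes: the kinases that phosphorylate eIF2α raise ATF4 and with it amino acid transport and synthesis (the integrated stress response), HSF1 raises chaperones, NRF2 raises antioxidant enzymes, TFEB and TFE3 raise lysosome and autophagy genes, and HIF factors raise genes of low oxygen.

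The SUDHL4 libraries summed to between 1434310 and 1548450 FPKM, of which small RNA loci held 21.8 to 28.8% under the inhibitor and 31.7 to 36.7% in DMSO. Read depth is unknown. B cell markers were present in every library: MS4A1, which encodes CD20, lay at 696, 704 and 644 FPKM under the inhibitor and at 968, 912 and 924 FPKM in DMSO. Of the markers of other lineages, 0 of 7 erythroid, 1 of 13 T and NK cell (CD3E), 1 of 11 myeloid (LYZ) and 4 of 14 stromal and epithelial markers met the level of entry. The summed level of the stromal and epithelial markers was 17.5 to 18.7 FPKM under the inhibitor and 52.9 to 56.8 FPKM in DMSO, mostly from THY1 and DCN, and its part in the results was not tested. HBG1, HBG2, CD2, CD8B and GNLY were at 0 in all 6 libraries. Within groups, pairs of libraries correlated at Pearson's r of 0.966 to 0.980 across genes, and between groups at 0.854 to 0.892.

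One DMSO library leaned toward the treated libraries. Among 740 genes with a mean of at least 5 FPKM that were called higher by at least 1 log2 unit, DMSO replicate 3 lay a median 12.1% of the way from the mean of the other DMSO libraries to the inhibitor mean on the FPKM scale, with quartiles of 10.0 and 14.1%. DMSO replicates 1 and 2, placed in the same way, lay at -6.26 and -6.54%. Among 927 genes called lower by at least 1 log2 unit, DMSO replicate 3 lay at 17.9% (quartiles 11.6 and 24.0%), against -8.68% for replicate 1 and -11.7% for replicate 2. DMSO replicate 3 was shifted in the direction of treatment for 732 of the 740 genes and for 892 of the 927. The inhibitor libraries did not lean alike. For the genes called higher their medians lay between -10.5 and 11.6% of the way toward DMSO, the highest being inhibitor replicate 3. Its quartiles were 0.736 and 20.5%, and 568 of the 740 genes were shifted toward DMSO. For the genes called lower the medians lay between -1.78 and 2.53%. These genes were called with the same libraries, so the values describe the lean and do not test it. Its cause was not tested. Results are therefore given with all 6 libraries and, where DMSO replicate 3 moves them, also without it.

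**Figure D1:**
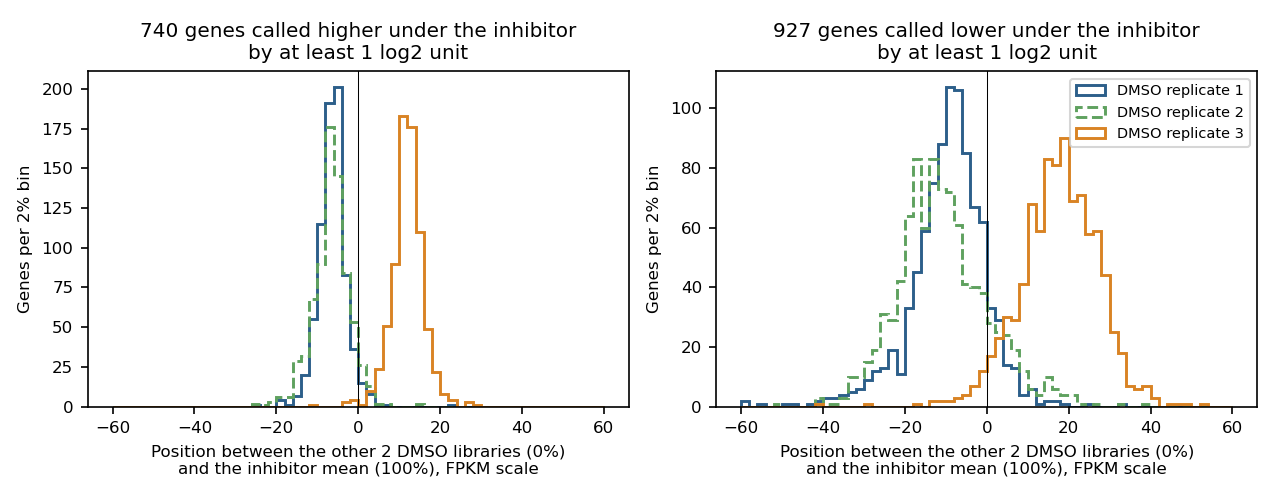
Position of each DMSO library between the mean of the other DMSO libraries (0%) and the inhibitor mean (100%) on the FPKM scale, as a count of genes per 2% bin, for genes called higher (left) and lower (right) by at least 1 log2 unit. DMSO replicate 3 peaks near 12.1% on the left and 17.9% on the right, while replicates 1 and 2 lie mostly below 0%.

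The inhibitor changed most of the expressed transcriptome. In limma on log2(FPKM + 1), with Benjamini-Hochberg adjustment over all 10522 genes and a two-sided threshold of 0.05, 3765 genes (35.8%) were called higher and 4693 (44.6%) lower, and 2064 were not called. Changes of at least 1 log2 unit were called for 1082 genes upward (10.3%) and 1514 downward (14.4%). The groups did not overlap for 8781 genes, or 83.5%. Folds are on the log2(FPKM + 1) scale, which understates the change of genes near 1 FPKM. The median log2 fold change over all genes was -0.10, and scaling the libraries by median ratios instead moved it to 0.00 and the calls to 4262 higher and 4248 lower. Small changes of one sign are thus read against a background that is itself shifted by about 0.10. Without DMSO replicate 3 the counts were 3645 higher and 4610 lower, and 1201 and 1641 for changes of at least 1 log2 unit. Of the 3765 and 4693 calls, 3600 and 4555 were also made without it in the same direction. As these are bulk samples, fewer cells of a kind and less RNA per cell cannot be told apart.

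BCL6 itself fell. The BCL6 locus, at chr3:187388558-187463515 of hg19, had 72.7, 71.9 and 72.5 FPKM under the inhibitor and 132, 139 and 123 FPKM in DMSO. All treated libraries lay below all DMSO libraries, and DMSO replicate 3 was the lowest of its group. The log2 fold change was -0.85 (SE 0.06, limma adjusted p = 2.65e-05) and -0.89 without DMSO replicate 3. The range over all alternatives was -0.90 to -0.74.

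Genes listed as direct targets of BCL6 moved both ways. Of 44 listed genes 30 were tested, 18 were called higher and 11 lower, with a median log2 fold change of 0.54. Over all genes 35.8% were higher and 44.6% lower, with a median of -0.10. The list was put together with earlier results of these data known, and it describes these genes only. DUSP5, a nuclear phosphatase of ERK, had 28.3, 29.6 and 26.9 FPKM under the inhibitor and 0.732, 1.02 and 4.50 FPKM in DMSO, which left every treated library far above every DMSO library. ID2, an inhibitor of E proteins, had 21.2, 30.0 and 15.1 FPKM under the inhibitor and 3.86, 3.48 and 5.81 FPKM in DMSO. CDKN1A (p21, a brake on the cell cycle kinases) had 20.6, 30.2 and 15.2 FPKM under the inhibitor and 4.70, 4.56 and 5.97 FPKM in DMSO. In ID2 and CDKN1A the treated libraries differed among themselves more than the DMSO libraries did, and the groups did not overlap. The early activation antigen CD69 rose by a log2 fold change of 2.06, the migration receptor GPR183 by 1.82, the chemokine receptor CXCR4 by 1.26 and the cell cycle inhibitor CDKN1B by 1.07. IRF4, a factor of plasma cell differentiation, had a mean of 1.27 FPKM under the inhibitor, against 0.143 FPKM in DMSO. IRF4 and CD69 met the level of entry through the inhibitor libraries alone, so a difference between groups was built into their entry. Both are part of the counts and the median of this list, which were not recomputed without them. PRDM1, the master factor of plasma cells and a textbook BCL6 target, did not reach the level of entry: it stayed at or below 0.0506 FPKM in all 6 libraries.

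Among the listed targets the largest decreases were PTPN6 (-3.53), MYC (-3.51) and BCL2L1 (-1.24), followed by SLAMF1 (-1.06) and BCL6 itself (-0.85). PTPN6 encodes SHP-1, a phosphatase that restrains B cell receptor signalling. Of the 44 listed genes 10 lay below the level of entry and 4 in loci that merge several genes. BCL6 corepressor genes moved both ways, in shares close to those of all genes (35.8% higher and 44.6% lower): of 23 tested 9 were called higher and 10 lower, with a median of 0.05. RYBP, a Polycomb protein, had 30.7, 36.0 and 25.01 FPKM under the inhibitor and 5.14, 5.66 and 7.74 FPKM in DMSO. The histone deacetylase gene HDAC9 had 1.33, 1.09 and 1.41 FPKM under the inhibitor and 6.77, 7.59 and 6.31 FPKM in DMSO. These 2 genes moved in opposite directions with no overlap between groups, and no other corepressor gene changed by 1 log2 unit. With median-ratio scaling 12 corepressor genes were higher and 8 lower.

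**Figure D2:**
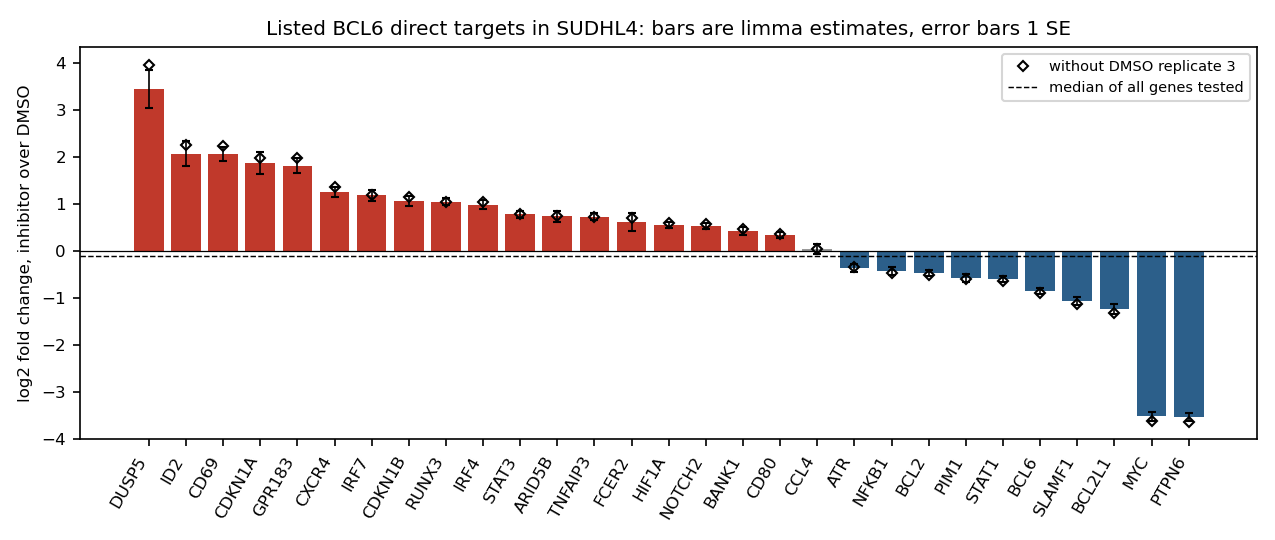
The log2 fold change of 29 of the 30 tested BCL6 direct targets in SUDHL4, inhibitor over DMSO, as bars with 1 SE (red called higher, blue called lower, grey not called), with diamonds for the fit without DMSO replicate 3. DUSP5 stands highest at 3.45 and PTPN6 lowest at -3.53, and the dashed line at -0.10 is the median of all genes tested.

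Of the 12 largest increases 4 are on the integrated stress list. PPP1R15A, at chr19:49375524-49382344 of hg19, encodes GADD34, the phosphatase subunit that reverses eIF2α phosphorylation. It had 316, 417 and 244 FPKM under the inhibitor and 6.91, 6.82 and 36.8 FPKM in DMSO, so DMSO replicate 3 held over 5 times the level of the other DMSO libraries and still lay far below every treated library. The log2 fold change was 4.59 (SE 0.61, limma adjusted p = 0.000368) and 5.34 without DMSO replicate 3. RGS1, a regulator of G protein signalling, had 145, 164 and 105.3 FPKM under the inhibitor and 2.99, 2.67 and 15.2 FPKM in DMSO (4.46, and 5.16 without DMSO replicate 3). DDIT3, the stress factor CHOP, had 514, 585 and 444 FPKM under the inhibitor and 19.1, 17.9 and 76.6 FPKM in DMSO (4.05, and 4.72 without DMSO replicate 3). In each of these genes DMSO replicate 3 was the highest DMSO library and the groups did not overlap.

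The same order held for the other leading increases. SLC7A11, the cystine transporter, had 65.0, 61.5 and 55.6 FPKM under the inhibitor and 1.17, 1.12 and 8.51 FPKM in DMSO (4.13, and 4.85 without DMSO replicate 3). SQSTM1, the autophagy receptor p62, had 597, 676 and 519 FPKM under the inhibitor and 23.8, 25.2 and 88.4 FPKM in DMSO (3.94, and 4.54 without DMSO replicate 3). ATF3, a stress-induced transcription factor, had 26.9, 33.5 and 22.4 FPKM under the inhibitor and 0.281, 0.268 and 3.28 FPKM in DMSO (3.89, and 4.47 without DMSO replicate 3). BAG3, a partner of heat shock chaperones, had 17.8, 27.3 and 12.97 FPKM under the inhibitor and 0.253, 0.255 and 1.76 FPKM in DMSO (3.58, and 3.96 without DMSO replicate 3). Several of these genes were near 0 FPKM in DMSO replicates 1 and 2 and between 1 and 4 FPKM in replicate 3. SLAMF7, a receptor of plasma cells, rose by 3.66 (4.06 without DMSO replicate 3), the oxidative stress gene OSGIN1 by 3.63 (4.15) and the uridine phosphorylase gene UPP1 by 3.55 (4.03). CRIM1, a transmembrane protein that binds bone morphogenetic proteins, had 22.7, 21.3 and 22.8 FPKM under the inhibitor and values that round to 0, 0.0152 and 3.12 FPKM in DMSO. Its fitted change of 3.85 (4.53 without DMSO replicate 3) depends on the pseudocount, and no fold is given.

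**Figure D3:**
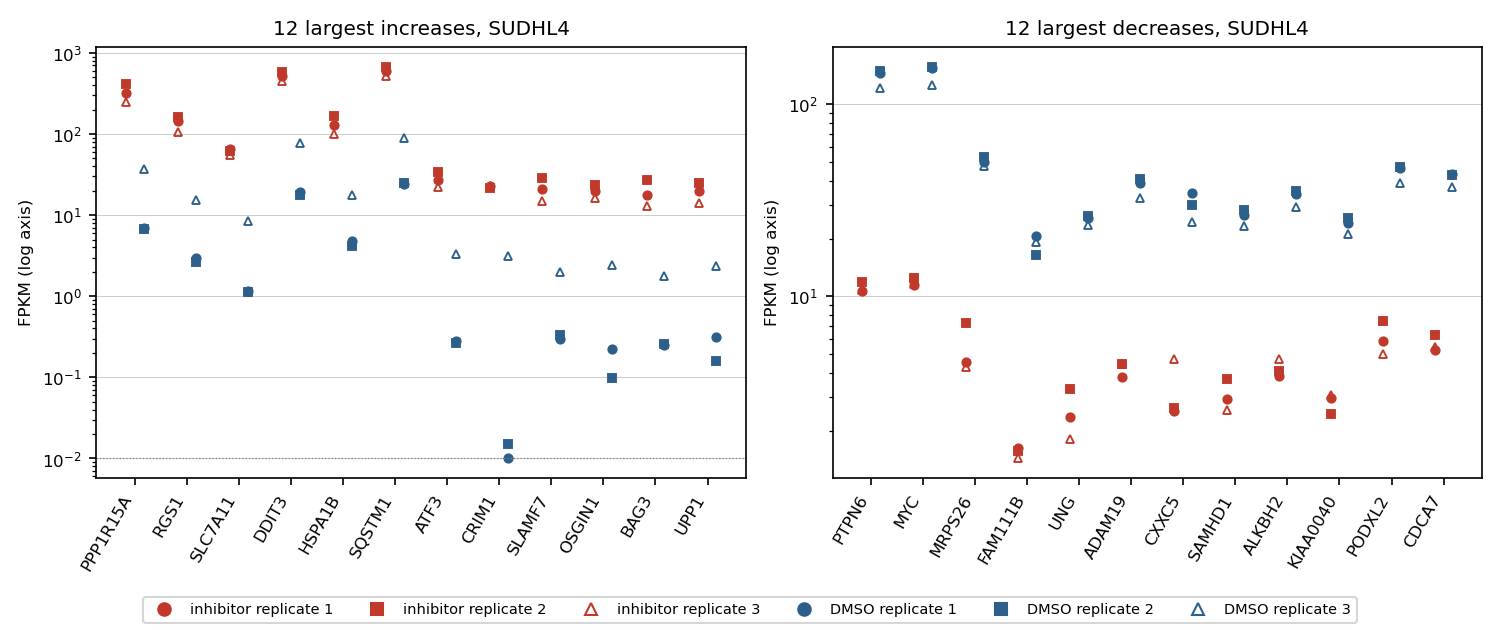
FPKM in each SUDHL4 library, on log axes, for the 12 largest increases (left) and the 12 largest decreases (right), with the inhibitor libraries in red left of the DMSO libraries in blue and a marker shape per replicate. Values under 0.01 FPKM are drawn at the dotted line (CRIM1). On the left DMSO replicate 3 (open blue triangle) lies above the other DMSO libraries in every gene, at 36.8 FPKM in PPP1R15A, and no gene's groups overlap.

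Most listed genes of the integrated stress response rose. Of 46 listed 33 were tested, and 28 were higher and 5 lower, with a median of 1.56. Members that rose included the amino acid transporter genes SLC38A2 (2.46), SLC3A2 (2.20), SLC7A5 (1.67), SLC1A5 (1.27) and SLC7A1 (1.19). The pseudokinase gene TRIB3 had 145, 165 and 132 FPKM under the inhibitor and 17.6, 16.5 and 30.5 FPKM in DMSO. CHAC1, which degrades glutathione, had 14.1, 14.8 and 15.9 FPKM under the inhibitor and 0.931, 1.24 and 3.05 FPKM in DMSO. Both rose in all treated libraries, and CTH, an enzyme of cysteine synthesis, rose by 2.64, ASNS, which makes asparagine, by 1.43 and PSAT1 of serine synthesis by 1.56. Against them ALDH18A1, the first enzyme of proline synthesis, fell by 2.10 on the log2 scale and EIF4EBP1, a brake on translation, by 1.38. With median-ratio scaling 28 members were higher and 3 lower. Aminoacyl-tRNA synthetases split: of 14 tested 8 were higher and 5 lower, against 35.8% higher and 44.6% lower over all genes. TARS (1.95), CARS (1.75) and GARS (1.62), which charge tRNA with threonine, cysteine and glycine, rose, whereas FARSB (-2.07) and VARS (-1.87), for phenylalanine and valine, fell.

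Chaperones of the heat shock response rose as a group. Of 26 tested 21 were higher and 1 lower (HSF1, -0.25), with a median of 1.51. HSPA1B, an inducible HSP70, had 128, 166 and 100.024 FPKM under the inhibitor and 4.73, 4.17 and 17.4 FPKM in DMSO. Its reads cannot be told apart with certainty from those of the near-identical HSPA1A, and the log2 fold change was 3.99 (4.58 without DMSO replicate 3). The co-chaperone DNAJB1 had 272, 329 and 232 FPKM under the inhibitor and 33.7, 33.2 and 58.9 FPKM in DMSO. HSPB1, the small chaperone HSP27, rose by 2.50, CHORDC1 by 2.35 and HSPH1 by 2.28. The constitutive HSPA8 (0.21) and the mitochondrial HSPD1 (0.05) did not pass the test. With median-ratio scaling no listed chaperone was called lower and 23 were higher.

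Targets of NRF2 followed in part. Of 20 tested 15 were higher and 2 lower, with a median of 1.24. MAFF, a small partner of NRF2, had 18.3, 26.2 and 12.5 FPKM under the inhibitor and 0.654, 0.678 and 2.51 FPKM in DMSO. TXNRD1 (thioredoxin reductase) rose by 2.22, SRXN1 (sulfiredoxin) by 1.98, GCLC (glutathione synthesis) by 1.799 and FTH1 (ferritin) by 1.76, while TXN (-0.22) and ABCC1 (-0.28) fell slightly. Metal handling genes moved both ways, with 5 of 11 higher and 3 lower, against 35.8% higher and 44.6% lower over all genes. The metallothioneins MT2A (-0.82) and MT1X (-0.81) fell and their activator MTF1 (1.30) rose.

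Of 23 tested genes of endoplasmic reticulum stress 17 were higher and 6 lower, with a median of 1.03. ERN1, the stress sensor IRE1α, had 21.3, 20.2 and 23.1 FPKM under the inhibitor and 0.754, 0.735 and 3.51 FPKM in DMSO. The sensor kinase EIF2AK3 (PERK) rose by 2.29 and SEL1L and HERPUD1, of the degradation machinery, by 2.39 and 1.78. The co-chaperone genes DNAJC3 and DNAJB9 both rose by 1.79. The chaperone HSPA5 (BiP) had 93.7, 118 and 76.3 FPKM under the inhibitor and 65.6, 69.2 and 69.4 FPKM in DMSO, a rise of 0.47 with groups close to each other. The disulfide isomerase genes PDIA6 (-0.66) and PDIA4 (-0.24), the chaperone HYOU1 (-0.40) and CRELD2 (-0.97) fell.

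Lysosome and autophagy genes were mostly higher. Among the 32 tested lysosome genes 25 were higher and 5 lower (median 1.48). Among 28 autophagy genes 21 were higher and 4 lower (median 0.82). NEU1, a lysosomal sialidase, had 113, 149.8 and 88.6 FPKM under the inhibitor and 9.34, 9.76 and 19.6 FPKM in DMSO. ASAH1, the acid ceramidase, had 222, 239.9 and 213 FPKM under the inhibitor and 21.4, 22.3 and 48.1 FPKM in DMSO. Both genes were highest in inhibitor replicate 2, and DMSO replicate 3 was again the highest DMSO library. LAMP1 of the lysosomal membrane rose by 2.61 and PSAP, the precursor of the saposins, by 2.30. FLCN (2.22) with FNIP1 (2.40) and FNIP2 (2.84), which form the folliculin complex on lysosomes, rose, and so did the transcription factor TFE3 (1.95), while its relative TFEB fell (-0.51). All 6 tested subunits of the proton pump with a V1 or V0 symbol rose, by 1.23 to 1.67. The cathepsin genes CTSC (-1.07) and CTSH (-0.81) fell. Of the autophagy genes MAP1LC3B had 377, 428 and 341 FPKM under the inhibitor and 54.4, 57.5 and 95.7 FPKM in DMSO. MAP1LC3B2 rose by 2.18 and is a near copy of it, so reads may be shared.

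Most tested genes of low oxygen were higher. Of 16 tested hypoxia genes 15 were higher and 1 lower (HILPDA, -0.15), with a median of 1.51. VEGFA, the vascular growth factor, had 95.2, 104 and 91.0 FPKM under the inhibitor and 8.10, 7.44 and 17.96 FPKM in DMSO. BNIP3L (2.76) and BNIP3 (2.43), receptors of mitophagy, the prolyl hydroxylase gene P4HA1 (2.68) and the histone demethylase gene KDM3A (2.31) rose with groups that did not overlap. Without DMSO replicate 3 HILPDA was not called. Of 15 glycolysis genes 10 were higher and 4 lower, among them TPI1 (1.56), PFKFB3 (1.47) and the glucose transporter SLC2A1 (1.16) against PFKL (-0.95). Of 25 genes of cholesterol synthesis and its control 14 were higher and 7 lower, against 35.8% higher and 44.6% lower over all genes. The efflux pump ABCA1 (2.06), the sterol carrier STARD4 (1.71) and MYLIP (1.46), which degrades the LDL receptor, led the increases.

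Early response genes moved both ways. Of 27 tested 17 were higher and 7 lower, with a median of 1.78. PPP1R15A and ATF3 are on this list and on the integrated stress list. FOS had 16.0, 21.5 and 11.9 FPKM under the inhibitor and 0.451, 0.336 and 2.02 FPKM in DMSO, and JUN had 6.91, 9.60 and 4.31 FPKM under the inhibitor and 0.151, 0.193 and 0.573 FPKM in DMSO. Beside these AP-1 members stood FOSB (2.09) and the phosphatase gene DUSP1 (2.602), against EGR1 (-1.26), EGR2 (-1.17) and the ERK phosphatase gene DUSP6 (-1.46). JUN, FOSB and DUSP1 met the level of entry through the inhibitor libraries alone, and EGR2 and DUSP6 through the DMSO libraries alone, so the direction of these 5 genes was built into their entry. They are part of the counts and the median of this list, which were not recomputed without them.

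Genes of growth arrest and death were mixed. Of 24 tested p53 targets 14 were higher and 9 lower, against 35.8% higher and 44.6% lower over all genes. PMAIP1 (NOXA, a BH3-only killer of the BCL2 family) had 341, 353 and 308 FPKM under the inhibitor and 48.9, 43.3 and 84.2 FPKM in DMSO. TNFRSF10B (death receptor DR5) rose by 1.79 and SESN2 by 1.76, whereas the p53 targets AEN (-2.38), BTG2 (-1.36) and DDB2 (-1.12) fell and MDM2 rose by 0.30 only. TNFRSF10D, a decoy receptor, had 122, 133 and 104 FPKM under the inhibitor and 7.17, 7.52 and 20.2 FPKM in DMSO. Of 16 death receptor and caspase genes 11 were higher and 4 lower, with FADD (-1.67), the adaptor of these receptors, the furthest down. In the BCL2 family 6 of 14 were higher and 7 lower, in shares near those of all genes (35.8% higher and 44.6% lower). The survival genes BCL2L1 (-1.24), BCL2A1 (-1.22) and BCL2 (-0.47) fell. Without DMSO replicate 3 the number of BCL2 family genes called higher was 4.

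The largest decreases were led by PTPN6 and MYC. PTPN6 had 10.6, 11.8 and 10.8 FPKM under the inhibitor and 146, 149.6 and 122 FPKM in DMSO (log2 fold change -3.53, SE 0.09, limma adjusted p = 8.17e-06). MYC, the growth factor-driven transcription factor of cell growth, had 11.5, 12.4 and 11.6 FPKM under the inhibitor and 155, 157 and 126 FPKM in DMSO (-3.51, SE 0.09, limma adjusted p = 8.17e-06). The treated libraries of both genes lay close together, and DMSO replicate 3 was the lowest DMSO library. MRPS26, a protein of the mitochondrial ribosome, fell by 3.04 on the log2 scale and FAM111B by 2.95. UNG, the uracil glycosylase of base excision repair, had 2.36, 3.298 and 1.82 FPKM under the inhibitor and 25.7, 26.3 and 23.4 FPKM in DMSO. SAMHD1, which degrades deoxynucleotides, fell by 2.73, ALKBH2, a DNA demethylase of alkylated bases, by 2.70 and ADAM19, a membrane protease, by 2.87. CXXC5 (-2.85), KIAA0040 (-2.68), PODXL2 (-2.675) and CDCA7 (-2.66) complete the 12 largest decreases. All 12 fell slightly further without DMSO replicate 3 except FAM111B (-2.93).

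Genes listed for the MYC network and ribosome biogenesis were mostly lower. Of 30 tested, MYC itself among them, 24 were lower and 3 higher, with a median of -1.21. The part of MYC in these changes was not tested. NOP16, a nucleolar assembly factor, had 14.8, 14.8 and 11.7 FPKM under the inhibitor and 65.5, 67.5 and 60.4 FPKM in DMSO. NCL (nucleolin) had 149, 189 and 131 FPKM under the inhibitor and 469.9, 485 and 423 FPKM in DMSO. The 3 increases were all partners of the network, namely MXD1 (2.69), MXI1 (1.54) and MAX (0.70), of which MXD1 and MXI1 oppose MYC on its binding partner MAX. Of 22 genes of nucleotide and polyamine synthesis 17 were lower and 4 higher, with a median of -1.12. MTHFD1 (-2.44) of folate metabolism, TYMS (-2.09) of thymidylate synthesis and SRM (-1.69) of spermidine synthesis fell, and SAT1, which breaks polyamines down, rose by 1.36. Of 43 proteins of the mitochondrial ribosome 33 were lower and 3 higher, with a median of -0.62, and with median-ratio scaling 30 were lower and 7 higher. Of 46 nuclear genes of the respiratory chain 31 were lower and 5 higher, with a median of -0.39. In contrast 22 of 33 proteins of the cytosolic ribosome were called higher and none lower, with a small median of 0.26. Without DMSO replicate 3 the number was 11, with median-ratio scaling 31, and with quantile normalization 8 were higher and 8 lower, so the group has no direction that holds under every scaling. RPL11, for example, had 7467, 7596 and 6777 FPKM under the inhibitor and 4919, 4801 and 5452 FPKM in DMSO, and related pseudogenes may share such reads.

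DNA replication genes fell almost without exception. Of 37 tested 34 were lower and 1 higher (POLE, 0.32), with a median of -1.60. PCNA, the sliding clamp, had 21.6, 24.3 and 19.2 FPKM under the inhibitor and 135, 135 and 122 FPKM in DMSO. MCM3, of the replicative helicase, had 10.8, 10.8 and 11.9 FPKM under the inhibitor and 65.9, 70.2 and 58.3 FPKM in DMSO. The groups of both genes were far apart. Only the cyclin genes CCNE1 (-0.17) and CCNE2 (-0.23) were not called among the 37. Of 33 genes of mitosis 31 were lower and 1 higher (CDC25C, 0.28), with a smaller median of -0.98. AURKB, the kinase of chromosome alignment, had 8.09, 8.27 and 8.42 FPKM under the inhibitor and 34.4, 35.5 and 30.4 FPKM in DMSO. MKI67, the proliferation marker Ki-67, fell by 0.93 on the log2 scale. Of 30 DNA repair genes 24 were lower and 2 higher, with UNG (-2.92) the furthest down. Among CDK inhibitors CDKN2C, which encodes p18, rose by 1.82 beside CDKN1A and CDKN1B, and CCND3 (-1.21) and CDK4 (-1.17) fell. All 6 tested histone genes rose, by 1.02 to 1.75. HIST1H2AC had 12.3, 15.1 and 13.2 FPKM under the inhibitor and 2.76, 3.23 and 3.97 FPKM in DMSO, and another 12 listed histone genes lay below the level of entry.

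B cell and germinal centre genes were lower. All 8 tested B cell markers fell, with a median of -1.12 and a summed level of 851 to 905 FPKM under the inhibitor and 1387 to 1483 FPKM in DMSO. PAX5, the factor that fixes B cell identity, had 13.3, 12.6 and 15.1 FPKM under the inhibitor and 48.6, 52.9 and 40.1 FPKM in DMSO. Of 28 factors and markers of the germinal centre 21 were lower and 6 higher, with a median of -0.75. ELL3 (-2.54), BCL11A (-2.50), POU2F2 (-2.47), LMO2 (-2.13) and IKZF3 (-1.90) led the decreases. KLHL6 (1.37) and FOXO1 (1.11) rose, FOXO1 with 47.7, 45.7 and 49.1 FPKM under the inhibitor and 20.5, 20.7 and 23.3 FPKM in DMSO. Plasma cell genes moved both ways: of 9 tested 4 were higher and 3 lower, against 35.8% higher and 44.6% lower over all genes. SLAMF7 (3.66) and XBP1 (1.38) were up and TNFRSF17, the receptor BCMA, was down (-1.30).

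B cell receptor signalling genes moved both ways, in shares close to those of all genes (35.8% higher and 44.6% lower): of 21 tested 8 were higher and 11 lower. Of 14 restraining genes 2 were higher and 11 lower. PLCG2, the phospholipase of the receptor, had 44.8, 47.7 and 44.8 FPKM under the inhibitor and 130.005, 134 and 113 FPKM in DMSO. The kinase gene FYN rose by 1.70, while the adaptor gene BLNK (-1.09) and the kinase genes BLK (-1.15) and PIK3CD (-1.09) fell. Beside PTPN6 the restraining genes SIT1 (-2.46), SIGLEC10 (-1.90), CD72 (-1.54) and FCGR2B (-1.36) fell, and the ubiquitin ligase gene CBLB rose by 1.34.

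Antigen presentation and immune signalling changed gene by gene. Over all genes 35.8% were called higher and 44.6% lower, and the counts of these lists are to be read against those shares. Of 10 MHC class II genes 3 were higher and 6 lower, and without DMSO replicate 3 only 1 was called higher. HLA-DMB (-1.35) and the master factor CIITA (-0.98) fell while HLA-DMA rose by 0.49. The class I proteasome gene PSMB9 fell by 2.06 and B2M rose by 0.55, with 2 of 6 class I genes higher and 3 lower. Among proteasome genes 14 of 31 were higher and 10 lower, with NFE2L1 (2.29), the factor that restores proteasome levels, at the top and PSMD5 (-1.98) at the bottom. Of 14 interferon genes 5 were higher and 8 lower, of 18 NF-kB targets 9 were higher and 6 lower, and of 13 genes of the toll-like receptor pathway 8 were higher and 4 lower. The chemokine receptor gene CCR7 had 8.90, 12.5 and 5.62 FPKM under the inhibitor and 1.06, 1.28 and 1.45 FPKM in DMSO. The adaptor gene TRAF6 (1.92) rose and MYD88 (-1.42) fell. Among 18 migration genes 8 were higher and 9 lower, with RGS2 (2.23) up and the integrin genes ITGA4 (-1.96), ITGB7 (-1.86) and ITGB2 (-1.67) down. LY9, of the SLAM receptors, had 239, 285 and 201 FPKM under the inhibitor and 24.3, 27.5 and 48.1 FPKM in DMSO, and 4 of 7 SLAM genes were higher and 2 lower. Costimulation genes had 4 of 8 higher and 2 lower, and NOTCH pathway genes 7 of 14 higher and 6 lower, with DTX1 (-1.71) and ADAM17 (1.70) at the ends.

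Of 12 chromatin regulators mutated or active in germinal centre lymphoma 10 rose. CREBBP, the acetyltransferase that opposes BCL6, had 50.7, 51.6 and 48.0 FPKM under the inhibitor and 10.7, 11.5 and 15.04 FPKM in DMSO. The demethylase genes KDM6A (1.84) and KDM6B (1.59) rose too, EZH2 rose by 0.47, and UHRF1 (-2.37) and SMARCA4 (-0.72) fell. Among 27 splicing genes 10 were higher and 13 lower, in shares close to those of all genes (35.8% higher and 44.6% lower). The kinase gene CLK1 (2.12) was up and SF3B3 (-1.26) down. Of 15 cytoskeleton genes 13 were lower and 1 higher, among them TUBB, with 118, 132 and 117 FPKM under the inhibitor and 459, 478 and 420.1 FPKM in DMSO. ACTB, often used as a reference gene, had 1362, 1712 and 1291 FPKM under the inhibitor and 4428, 4696 and 3960 FPKM in DMSO.

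**Figure D4:**
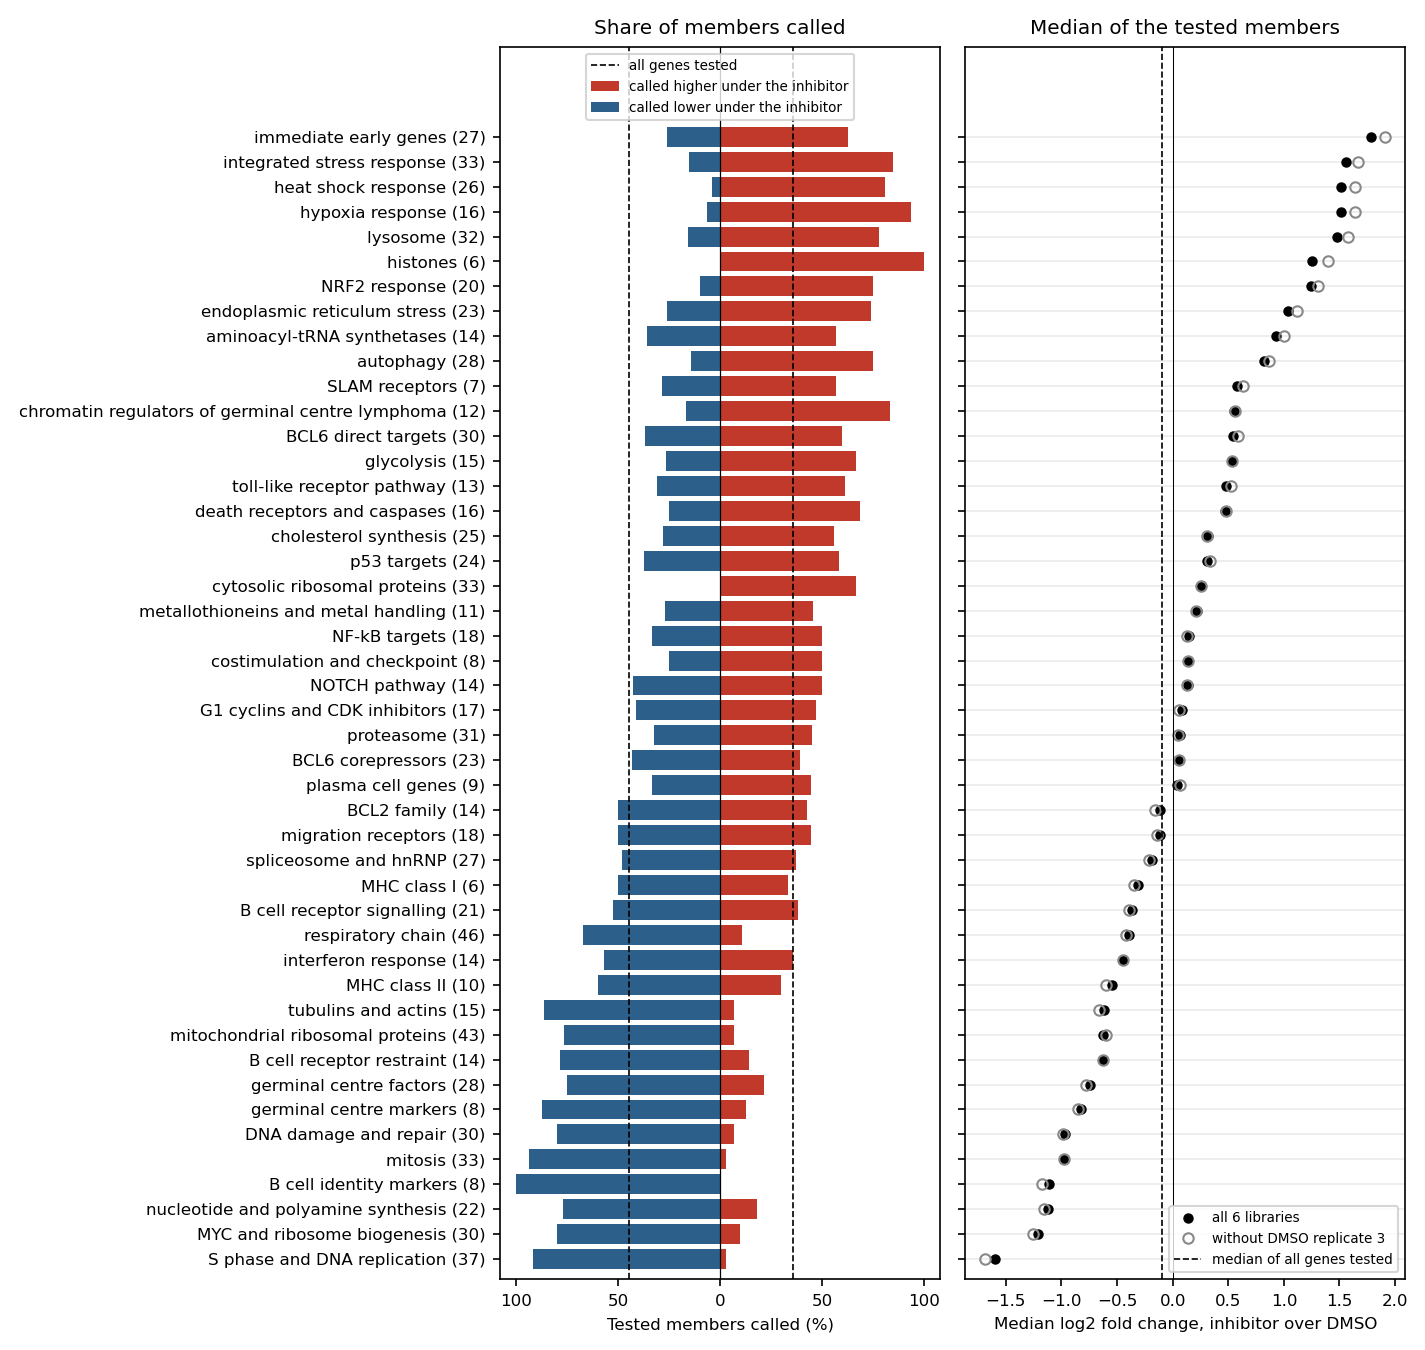
Gene lists with at least 6 tested members, ordered by median, with the number tested in brackets. The left panel gives the percent of tested members called lower (blue, to the left) and higher (red, to the right), with dashed lines at the shares of all genes tested (44.6% lower, 35.8% higher). The right panel gives the median log2 fold change with all libraries (filled) and without DMSO replicate 3 (open). Early response and stress lists stand at the top near 1.78 and 1.56 and DNA replication at the bottom at -1.60.

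Promoters of gene lists and of the called genes were read for short motifs. RefSeq promoters of GRCh38.p14, from 250 bases before to 50 after each annotated start, were found for 6497 of 8906 genes with an unshared single name, 9506 promoters in all, since a gene can have several starts. The 250 bases before 1 start are shown for the named gene of each of 5 lists with the largest change whose window there holds the motif of the regulator named with the list, with the matching bases in capitals. HSPA1B (chr6:31827488-31827737, plus strand) holds the heat shock element core GAANNTTC, ATF3 (chr1:212565157-212565406, plus) the C/EBP-ATF letters TGATGNAA, MAFF (chr22:38201744-38201993, plus) the antioxidant element letters TGACNNNGC on the other strand, CDCA7 (chr2:173354622-173354871, plus) the E2F letters TTTCCCGC on the other strand and SPC25 (chr2:168890431-168890680, minus) the cell cycle homology letters TTTGAA.
HSPA1B: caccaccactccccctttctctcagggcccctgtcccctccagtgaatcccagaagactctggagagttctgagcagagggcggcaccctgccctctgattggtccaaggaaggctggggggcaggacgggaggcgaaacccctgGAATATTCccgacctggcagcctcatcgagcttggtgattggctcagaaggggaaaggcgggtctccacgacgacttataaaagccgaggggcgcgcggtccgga
ATF3: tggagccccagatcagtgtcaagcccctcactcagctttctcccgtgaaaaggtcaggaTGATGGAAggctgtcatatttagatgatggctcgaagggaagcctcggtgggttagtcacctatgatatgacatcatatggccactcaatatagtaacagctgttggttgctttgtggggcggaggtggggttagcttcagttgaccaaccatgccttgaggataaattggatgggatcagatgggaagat
MAFF: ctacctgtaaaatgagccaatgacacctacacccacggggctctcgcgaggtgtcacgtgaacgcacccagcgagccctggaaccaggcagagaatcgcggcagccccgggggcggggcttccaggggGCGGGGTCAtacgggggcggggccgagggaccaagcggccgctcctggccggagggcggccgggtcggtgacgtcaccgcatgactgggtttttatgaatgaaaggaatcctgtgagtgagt
CDCA7: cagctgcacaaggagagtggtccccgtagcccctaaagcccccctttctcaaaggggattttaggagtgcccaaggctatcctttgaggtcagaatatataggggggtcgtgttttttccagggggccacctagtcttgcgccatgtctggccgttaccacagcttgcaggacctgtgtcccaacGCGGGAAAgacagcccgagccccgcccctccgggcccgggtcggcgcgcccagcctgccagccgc
SPC25: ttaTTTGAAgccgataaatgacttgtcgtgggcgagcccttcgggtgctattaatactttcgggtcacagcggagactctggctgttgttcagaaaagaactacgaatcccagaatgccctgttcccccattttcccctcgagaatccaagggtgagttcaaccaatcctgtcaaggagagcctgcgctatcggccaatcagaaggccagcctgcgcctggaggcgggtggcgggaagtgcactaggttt
The matches begin 105, 191, 122, 65 and 247 bases before the start in the order shown.

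Each motif was counted on both strands. The share of a list covers its tested genes with a matched promoter, called or not. It therefore describes the list and not the response. Either end-to-end orientation of the heat shock core was searched, TTCNNGAA and GAANNTTC, and the pair can overlap where 3 units stand in a row. GAANNTTC stood in 13 of 36 promoters of the heat shock list (36.1%), against 5.10% of the promoters of all genes tested, and TTCNNGAA in 10 (27.8%), against 6.42%. TGATGNAA stood in 8 of 36 promoters of the integrated stress list (22.2%), against 1.96%. TTTCCCGC stood in 11 of 39 promoters of DNA replication genes (28.2%), against 2.51%, and TTTGAA in 20 of 35 promoters of mitosis genes (57.1%), against 10.7%, beside a CCAAT box in 27 (77.1%), against 35.0%. The E box CACGTG, which MYC, MXD1 and TFE3 can bind, stood in 12 of 30 promoters of MYC and ribosome biogenesis genes (40.0%) and in 7 of 22 of lysosome genes (31.8%), against 9.40%. TGACNNNGC stood in 6 of 21 promoters of the NRF2 list (28.6%) and in 9 of 22 of the lysosome list (40.9%), against 14.7%. Its share was also above the background in lists of other kinds, with 30.6% for integrated stress, 25.7% for mitosis and 25.6% for DNA replication. The BCL6 letters TTCCTNGAA stood in 1 of 34 promoters of the listed BCL6 targets (2.94%), against 1.00%. Over all genes called higher by at least 1 log2 unit TGACNNNGC stood in 19.5% and TGATGNAA in 3.18%. GAANNTTC (5.85%) and TTCNNGAA (6.36%) were there close to their shares over all genes tested. Over genes called lower by as much TTTCCCGC stood in 3.84%. TTTGAA (10.85%) and CCAAT (36.7%) were there close to their shares over all genes tested. CACGTG stood in 10.7% of the promoters of the higher genes and in 10.8% of those of the lower genes. Over the 137 promoters of genes higher by at least 2 log2 units TGACNNNGC stood in 27.7%, GAANNTTC in 10.9% and CACGTG in 12.4%. Over the 125 of genes lower by as much TTTCCCGC stood in 10 (8%), CACGTG in 16%, CCAAT in 45.6% and TTTGAA in 9.6%. In the whole RefSeq table of 35093 promoters GAANNTTC stood in 6.77%, TTCNNGAA in 7.74%, TGATGNAA in 3.62%, TTTCCCGC in 1.63%, TTTGAA in 15.2%, CACGTG in 7.26%, CCAAT in 34.6%, TGACNNNGC in 13.4% and TTCCTNGAA in 1.56%. A match is a description of letters and not a site.

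In the main fit the SUDHL4 response was called different from that of the other lines in a minority of genes. The difference between the SUDHL4 response and the mean response of SUDHL6 and Farage was tested in limma on all 18 libraries. It was above 0 for 1661 genes (15.8%) and below 0 for 1926 (18.3%), with 201 and 269 differing by at least 1 log2 unit. These counts depend on the setting, and a gene that was not called is not shown to respond alike. Array weights gave 2993 genes above 0 and 3310 below, and leaving out replicate 3 of both SUDHL6 groups gave 2044 and 2316. MYC stood out: its log2 fold change was -3.51 in SUDHL4, -1.29 in SUDHL6 and -0.12 in Farage, a difference of -2.81 (SE 0.12, limma adjusted p = 1.67e-09). Its mean level was 11.85 FPKM under the inhibitor and 146 FPKM in DMSO in SUDHL4, 52.2 and 128.5 FPKM in SUDHL6, and 62.7 and 67.9 FPKM in Farage. BCL6 also fell further in SUDHL4 (difference -0.85, SE 0.14, limma adjusted p = 0.000367), with -0.19 in SUDHL6 and 0.20 in Farage, neither of which passed the test. Genes of the MYC and ribosome biogenesis list, which holds MYC itself, lay below 0 in this difference in 14 of 30 cases and above it in 2. DNA replication genes lay below 0 in 7 of 37 cases, a share close to the 18.3% of all genes, and above it in 1.

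Genes with the opposite sign in SUDHL4 and in the other lines included ERAP2, LIMK2, CUTA and SULT1A1. ERAP2, a peptidase of class I presentation, had 7.91, 7.77 and 7.40 FPKM under the inhibitor and 3.51, 3.68 and 4.45 FPKM in DMSO in SUDHL4 (0.84), and it fell in SUDHL6 (-1.25) and Farage (-0.41). LIMK2, a kinase of the actin cytoskeleton, rose in SUDHL4 (1.09) and fell in SUDHL6 (-0.64) and Farage (-0.46), and CUTA rose by 0.63 and fell by 0.71 and 0.44. SULT1A1, a sulfotransferase, fell in SUDHL4 (-1.93) and rose in SUDHL6 (1.02) and Farage (0.72). Each of these differences passed the test under every alternative tried. THY1 (-2.004), DCN (-1.42), USP2 (-2.19) and NUDT11 (-1.24) fell in SUDHL4 and were at or below 0.117 FPKM on average in all 4 groups of the other lines, so that no response could be seen there. Of the stress genes HSPB1 rose further in SUDHL4 (difference 1.64) and SRXN1 less (-1.09). PPP1R15A (1.597) and ERN1 (1.17) also rose further, but both calls were lost under at least 1 alternative, with limma adjusted p up to 0.121 and 0.178. PDIA4 fell by 0.24 in SUDHL4 (not called there with median-ratio scaling) and by 1.52 in SUDHL6 and 1.54 in Farage.

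**Figure D5:**
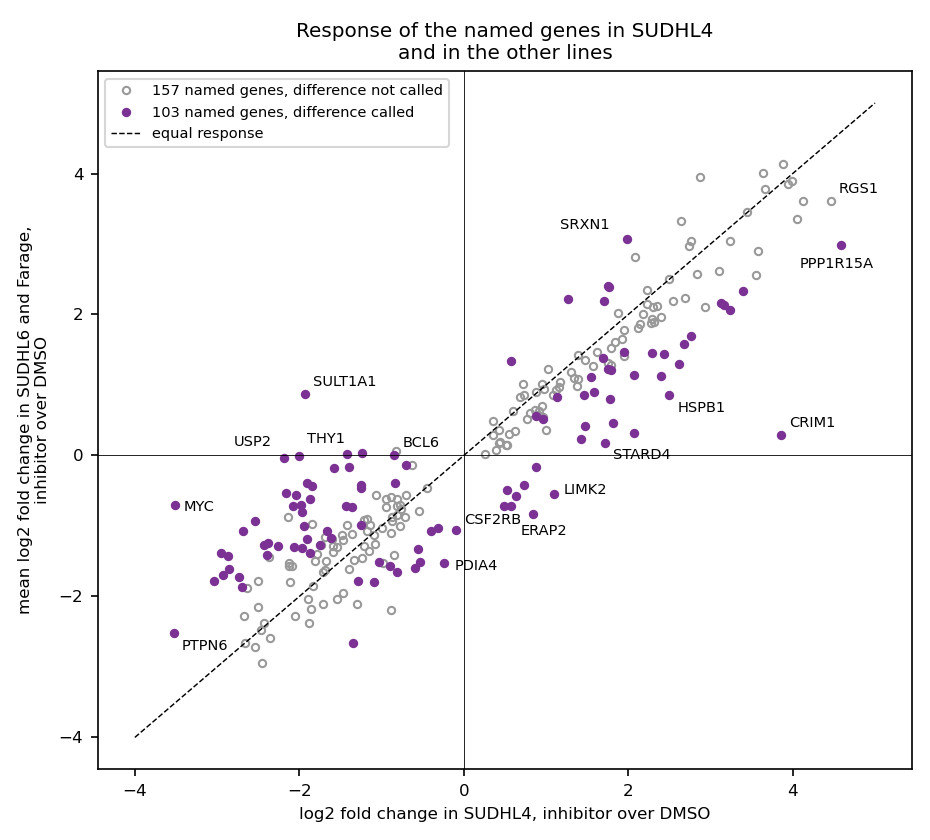
The log2 fold change of 260 named genes in SUDHL4 (horizontal) and its mean in SUDHL6 and Farage (vertical), inhibitor over DMSO in both, filled where the difference was called (103 genes). Points under the dashed line of equal response on the right rose further in SUDHL4, such as PPP1R15A at 4.59, and MYC at -3.51 lies far to the left of the line.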

How the data were processed

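The deposited values are FPKM, computed by the authors for 34410 loci on hg19. Per the submitters' processing notes CASAVA 1.8, TopHat2 and Cufflinks were used. Annotation, strandedness and any further scaling were not stated there. Counts are unknown, so no counting interval is given. Of 10522 tested loci 1308 merge several genes and 210 are small RNA; they stayed in all tests and were not named. For the 5 named genes with several tested loci the one with the highest mean is given.

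The values, on the log2(FPKM + 1) scale, were analysed with limma 3.58.1 under R 4.3.3, using an intensity trend: the 6 SUDHL4 libraries for the response, all 18 for the difference from the other lines. Python 3.11.15, pandas 2.3.3, numpy 2.4.6 and matplotlib 3.10.9 made the tables and plots. The method was tested on simulated data. Few genes were changed there and no library leaned, so that test does not cover a change of most genes as seen here. Deviations of same-numbered SUDHL4 libraries correlated at -0.0046, 0.127 and 0.000125, and those of other-numbered ones at -0.106 to 0.0919. Numbers were therefore not treated as pairs. SUDHL6 and Farage were not checked in this way. In SUDHL6, unnamed loci held 6.19% (inhibitor) and 5.72% (DMSO) of the FPKM in replicate 3, against 8.70 to 11.5% in its other libraries.

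The question, the 50 gene lists (1273 symbols, 874 tested) and the motifs were chosen with earlier results of these data known. Lists share members, so the same gene can count in several lists, as MYC, SLC7A11, SQSTM1 and BNIP3 do. Named genes are BCL6, the 12 largest called changes each way without overlap, up to 6 called members per list and the 8 smallest p of the difference each way, all with a mean of at least 5 FPKM. Genes named outside this rule were chosen after their values were seen. Some genes that the rule selects or the lists hold are not reported here; they stayed in all tests and counts. Alternatives covered pseudocount, filter, scaling, weights, block and left-out libraries.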

Additional observations from a re-analysis of the deposited data

Results flagged for a closer look

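These results drew attention because the SUDHL4 response differed from the mean response of SUDHL6 and Farage by its own test in limma. The difference in log2 fold change was above 0 for ERAP2 (1.67), LIMK2 (1.64), PDIA4 (1.30), CUTA (1.21), SLC43A2 (1.14), SLC25A4 (1.02) and CSF2RB (0.96). It was below 0 for MYC (-2.81), SULT1A1 (-2.80), USP2 (-2.15), THY1 (-1.999), FSD2 (-1.48), DCN (-1.45), AFAP1-AS1 (-1.41), NUDT11 (-1.27) and BCL6 (-0.85). These genes were selected as those with the smallest p among 10522, apart from BCL6. CSF2RB did not pass the test in SUDHL4 (-0.10, limma adjusted p = 0.148) and was near 0 FPKM in SUDHL6, so its difference came from Farage (-2.03).

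Signal also appeared in loci that carry no gene name and enter no comparison. The unnamed locus of the mitochondrial chromosome was listed at 1678, 1521 and 1872 FPKM in the SUDHL4 inhibitor libraries and at 0 in all 3 DMSO libraries. In the other lines it was listed at 2776 FPKM in inhibitor replicate 3 and at 2425 FPKM in DMSO replicate 3 of SUDHL6 and at 0 elsewhere, and an exact 0 for such RNA can be a failed estimate. Of the unnamed loci 58 reached 1 FPKM in all 3 inhibitor libraries and in no DMSO library, and 48 the other way round, among 509 that met the level of entry.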

How the results depend on the processing

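Of 260 called named genes 11 lost the call under at least 1 of the 17 alternatives of the SUDHL4 comparison, and none reversed. A pseudocount of 5 left 603 genes higher and 667 lower by at least 1 log2 unit. With the replicate block 3717 genes were higher and 4601 lower, and same-numbered SUDHL4 libraries had shown little common deviation. For the difference from the other lines the block gave 2022 genes above 0 and 2248 below. Leaving out 1 SUDHL4 library at a time gave 3503 to 3731 genes higher and 4389 to 4651 lower. Array weights gave 4333 genes higher and 5249 lower in the SUDHL4 comparison, with a weight of 24.8 for inhibitor replicate 1. For the difference from the other lines, array weights gave 2993 genes above 0 and 3310 below. The weights did not fully converge, and those of the difference are not given here. Differences of at least 1 log2 unit numbered 334 above 0 against Farage alone, 308 against SUDHL6 alone, 132 with a mean of at least 5 FPKM, 316 with a pseudocount of 0.1 and 82 with a pseudocount of 5. Below 0 they numbered 165, 406 and 84 under the last 3 of these. CSF2RB reversed against SUDHL6 alone (-0.013, limma adjusted p = 0.918). The cause of these changes was not tested. Depth is unknown, so genes near 1 FPKM are least certain.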

Other observations

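Families grouped by their symbol alone, a grouping made after the data were seen, also leaned one way in SUDHL4. Among 23 ZBTB genes, the BTB zinc finger family to which BCL6 belongs, 78.3% were called higher and 8.70% lower, with a median log2 fold change of 0.50. RNF genes, which encode RING finger ubiquitin ligases, were higher in 69.8% of 43 cases and lower in 13.95%. RBM genes for RNA-binding proteins were higher in 65.2% of 23 and PPP genes for phosphatase subunits in 63.9% of 36. POLR genes, subunits of the RNA polymerases, were lower in 75% of 24 with a median of -0.70, and DDX helicase genes were lower in 64.0% of 25 with a median of -0.72. WDR genes were lower in 59.0% of 39 and KIF motor genes in 61.9% of 21. Over single named genes with an unshared name 35.9% were higher and 46.2% lower.

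The response varied with the level and span of the locus. In the quintile of genes with the highest mean level 43.5% were called higher and 39.5% lower, and in the lowest quintile 25.6 and 51.7%. In the quintile with the shortest loci the median log2 fold change was -0.27, and in the quintile with the longest it was -0.02. By chromosome the share of genes called lower was 54.5% on chromosome 22 (189 genes) and 54.2% on chromosome 16 (367 genes), against 38.3% on chromosome 18 (120 genes). The part that level and span play in the family values was not tested.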
